A study of Mus musculus with 36 samples.

Results

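The 4 piRNA clusters 18-qE1-36451, 9-qA5.3-24188, 4-qC5-17839 and 6-qF3-28913 were chosen from earlier results of these data because their piRNAs were abundant and clearly lower in D1Pas1 knockout testis. They are 4 of 215 clusters with small RNA values. Of the 215, 101 are named by a chromosome and band and are called intergenic here, as are these 4, and 114 are named after a gene and are called genic. The names place the members on chromosome 18 band qE1, chromosome 9 band qA5.3, chromosome 4 band qC5 and chromosome 6 band qF3. The question was whether the precursor RNA of these clusters falls together with the piRNAs made from it, and whether the D1PAS1 protein is cross-linked to that RNA.

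Pachytene piRNAs are small RNAs of male meiotic and haploid germ cells that guide PIWI proteins and are cut from long single-stranded transcripts of dedicated clusters. The transcription factor A-MYB, encoded by Mybl1, switches most of these clusters on as spermatocytes enter pachytene. The precursors are then carried to cytoplasmic granules, where the helicase MOV10L1 and the nuclease PLD6 fragment them, PNLDC1 trims the ends and HENMT1 methylates them. D1PAS1 is a testis-specific DEAD-box RNA helicase closely related to DDX3X, so reads of the corresponding genes can be hard to separate.

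The series measured mouse testis, labelled as male germ cells, with 3 libraries per group. RNA-seq compared wild-type and D1Pas1 knockout testes at postnatal days 14, 18 and 28 (P14, P18, P28), in 18 libraries. Small RNA-seq compared 3 wild-type with 3 knockout libraries made after beta-elimination from oxidised RNA, a treatment that spares 3′-methylated piRNAs. The eCLIP libraries, which record protein-RNA cross-links, came from UV-treated testes of D1Pas1 knock-in (KI) mice and comprised 3 D1PAS1 precipitates and 3 size-matched inputs, with no wild-type or knockout precipitate among those used here. For small RNA and eCLIP the labels leave the age open, and they do not say how the KO and KI alleles were made, and do not say whether replicates were separate animals, so p-values measure only the spread between these samples.

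RNA-seq totals ran from 16048760 to 40927153 estimated counts per library. D1Pas1 was lower in every knockout library than in every wild-type library at each age, at 40.8% of the wild-type mean at P14, 23.1% at P18 and 15.1% at P28. In the edgeR fits it was called lower at P18 and P28 but not at P14 (log2 fold change -1.28, adjusted p = 0.0859). A missing call at P14 therefore does not show that a gene is unchanged. At P28 the labelled germ cell samples also held somatic markers: 9 of 10 tested Sertoli genes and 7 of 7 tested Leydig genes were higher in knockout, where 24.6% of all rows were called higher (4347 rows, or 7276 with library totals alone). The libraries thus contain more than germ cells. Germ cell marker lists are given beside the cluster values at P18 and P28, and the pachytene list alone at P14. Fewer cells of a type and less RNA per cell cannot be told apart in these bulk libraries.

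The piRNA values are the contrast that chose the members, so they are described without a test. The unit is a signal per cluster that the authors normalized by a method not defined in the sources used here. 18-qE1-36451 had signals of 33210, 36317 and 24264 in wild-type libraries 1 to 3 and 14104, 10859 and 12049 in knockout libraries 1 to 3. 9-qA5.3-24188 had 23091, 25415 and 17839 in wild type and 10891, 8600 and 9341 in knockout. In both clusters the highest knockout library stayed below the lowest wild-type library, and the knockout means were 39.5% and 43.5% of the wild-type means. 4-qC5-17839 had 14628, 14650 and 9907 in wild type and 4212, 3586 and 3717 in knockout, or 29.4% of wild type. 6-qF3-28913 had 29443, 31390 and 24275 against 18959, 17223 and 17978, or 63.6%. The groups were also apart in these clusters, as they were for 42.3% of all 215 clusters in this direction, and wild-type library 3 was the lowest wild-type library for each of the 4. At an adjusted p under 0.05, limma called 36.3% of the 215 in either direction; nothing is read from this for the members, which the contrast chose.

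**Figure D1:**
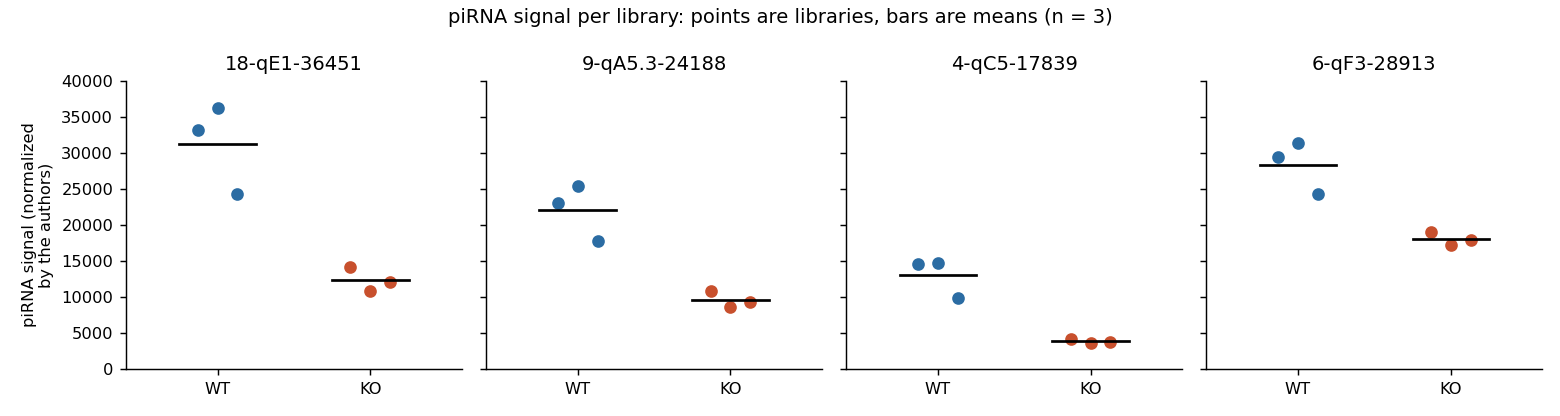
piRNA signal of the 4 clusters (y axis, as normalized by the authors) in 3 wild-type (WT, blue) and 3 knockout (KO, red) small RNA libraries; points are libraries and bars are means. All knockout points lie below all wild-type points, with the smallest gap relative to its level in 6-qF3-28913.

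In wild type these clusters held ranks 3, 5, 11 and 4 of 215 by mean signal per cluster, not per length, in the order named above. Their knockout ranks were 8, 10, 27 and 5. Together they gave 15.3% to 18.7% of the summed cluster signal in the wild-type libraries and 9.48% to 10.4% in the knockout libraries. The log2 differences were -1.33 (SE 0.21), -1.19 (SE 0.18), -1.75 (SE 0.20) and -0.64 (SE 0.12), n = 3 per genotype. These were not the largest differences of the set: the members stood at places 27, 35, 12 and 62 of 215 when clusters were ordered from the most negative. Among the 12 most abundant clusters they held the 4 most negative values. Just outside the choice lay 9-qC-10667 at -0.49 and 7-qD1-19431 at -0.43, beside 6-qF3-28913 at -0.64 just inside it. The most abundant cluster of all, 17-qA3.3-27363, had 0.15, and 17-qA3.3-26735 had 0.48.

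At P14, before most spermatocytes reach pachytene, precursor RNA of the 4 clusters was low in both genotypes. Precursor values are counts per 1000000 (CPM) scaled over all 18 libraries. 18-qE1-36451 stood at 17.3, 50.4 and 16.6 CPM in wild-type libraries 1 to 3 and 19.1, 19.2 and 26.6 CPM in knockout libraries 4 to 6. 9-qA5.3-24188 had 8.18, 27.1 and 9.58 CPM against 10.2, 10.99 and 16.2 CPM. 4-qC5-17839 had 14.8, 39.6 and 12.1 CPM against 16.96, 21.5 and 21.5 CPM, with the genotypes overlapping as in the clusters before it. 6-qF3-28913 had 23.3, 67.0 and 23.5 CPM against 34.3, 32.9 and 41.6 CPM. Wild-type library 2 was the highest library of all in each cluster, at 2.67 to 2.91 times the wild-type median, and the other wild-type libraries lay below every knockout library.

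None of the 4 precursors passed the test at P14, where the log2 fold changes of knockout over wild type were -0.36, -0.25, -0.14 and -0.05 with adjusted p of 0.927, 0.952, 0.975 and 0.992 (edgeR, in the order named above). The test called 0% of 15922 rows at this age (948 rows had an unadjusted p under 0.05, and DESeq2 called 58). The sign rested on wild-type library 2: without it the values were 0.35, 0.49, 0.57 and 0.64, with adjusted p from 0.159 to 0.587. That library also had the highest summed level of the 12 pachytene marker genes at P14, 772 CPM against 469 and 517 CPM in the other wild-type libraries and 488 to 567 CPM in knockout; its part in the difference was not tested.

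By P18 the wild-type precursors had risen steeply. 18-qE1-36451 reached 478, 418 and 662 CPM in wild-type libraries 7 to 9. From P14 to P18 the wild-type log2 changes were 4.26, 4.63, 3.96 and 3.44, with adjusted p of 3.77e-05, 4.37e-05, 8.67e-05 and 4.17e-05 (edgeR), at an age step where 27.0% of all rows were called higher. The knockout precursors rose as well, by 2.42 (adjusted p = 0.0068), 2.79 (0.00572), 2.05 (0.0172) and 2.05 (0.0062), where 12.7% of rows were called higher. The rise of 4-qC5-17839 in knockout lost its call when P14 knockout library 4, 5 or 6 or P18 knockout library 11 was left out (log2 values 1.23 to 2.10, adjusted p 0.0529 to 0.0842). Each age has its own table, so age and table cannot be told apart.

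The precursors of all 4 clusters were lower in knockout at P18. 18-qE1-36451 had 51.8, 203 and 92.8 CPM in knockout libraries 10 to 12, against the wild-type values above. 9-qA5.3-24188 had 326, 281 and 467 CPM in wild type and 32.4, 158 and 67.1 CPM in knockout. For both, the highest knockout library was below the lowest wild-type library. 4-qC5-17839 had 310, 244 and 446 CPM against 37.7, 153 and 56.2 CPM. 6-qF3-28913 had 349, 331 and 512 CPM against 87.2, 227 and 137 CPM. Again no knockout library reached a wild-type one; across all rows tested, 20.9% were apart in this direction. The libraries kept one order over the clusters: wild-type library 9 was always the highest, knockout library 10 the lowest and knockout library 11 the highest of the knockouts.

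Relative to the wild-type mean, the knockout mean at P18 was 22.3% for 18-qE1-36451, 24.0% for 9-qA5.3-24188, 24.7% for 4-qC5-17839 and 37.8% for 6-qF3-28913. The log2 fold change was -2.20 for 18-qE1-36451 (SE 0.44, adjusted p = 0.00842, edgeR) and -2.09 for 9-qA5.3-24188 (SE 0.49, adjusted p = 0.0192). It was -2.05 for 4-qC5-17839 (SE 0.48, adjusted p = 0.0179) and -1.44 for 6-qF3-28913 (SE 0.32, adjusted p = 0.0148). So 4 of 4 precursors fell, where 15.0% of 15722 rows were called lower. Without knockout library 12 the last 3 lost their calls, at adjusted p of 0.0897, 0.0827 and 0.0722, while the fold changes were -1.94, -1.84 and -1.37. Among the other intergenic clusters 78 of 96 tested were lower and none was higher, with a median of -1.28, so falling precursor RNA was common to the class; the genic clusters had 13 lower and 2 higher of 114. All 12 pachytene markers were also lower at P18, with a median log2 fold change of -2.41 and sums of 2977 to 3631 CPM in wild type and 1055 to 1412 CPM in knockout. Among the other germ cell lists, 4 of 5 tested round spermatid genes and 2 of 2 tested elongating spermatid genes were lower at P18. None of these was higher. Of 10 leptotene and zygotene genes 2 were lower and none higher, beside the 15.0% of all rows called lower. Of 10 spermatogonia genes 1 was lower and 1 higher (median 0.19). The part of these lists in the precursor difference was not tested.

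**Figure D2:**
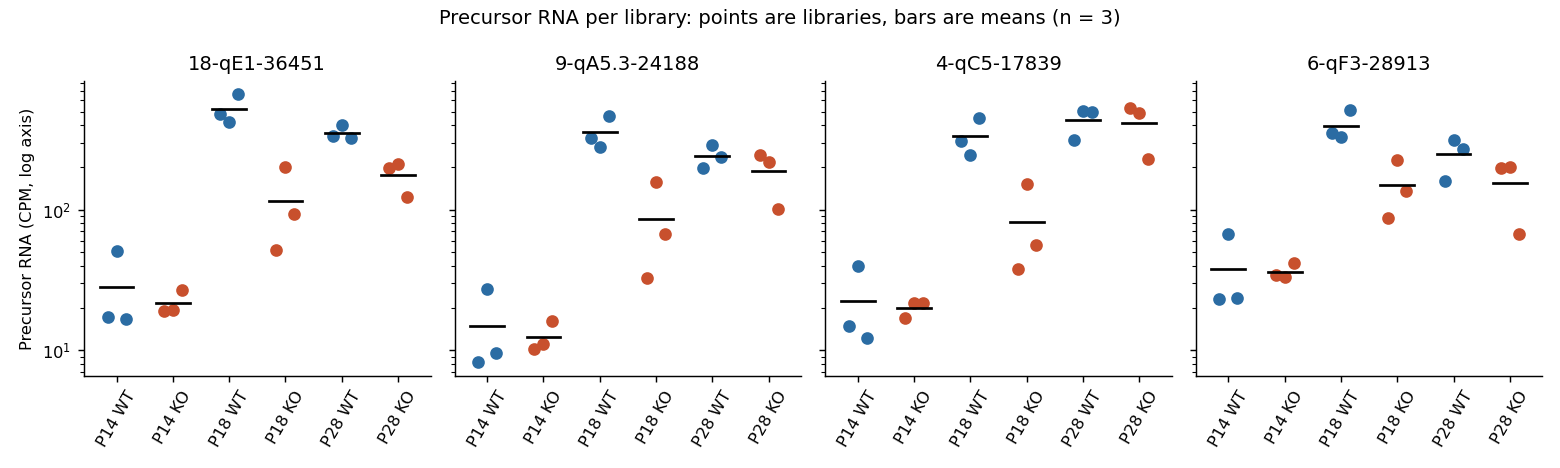
Precursor RNA of the 4 clusters (y axis, CPM, log axis) in each RNA-seq library by age and genotype (WT blue, KO red); points are libraries and bars are means of 3. At P18 all knockout points lie below all wild-type points in each panel, while at P28 they do so only for 18-qE1-36451.

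At P28 the genotypes were fully apart only in 18-qE1-36451. Differences between the clusters were not tested. 18-qE1-36451 had 332, 398 and 326 CPM in wild-type libraries 1 to 3 and 199, 210 and 123 CPM in knockout libraries 4 to 6, with no overlap, as for 35.0% of all rows in this direction. 4-qC5-17839, whose piRNAs had the lowest knockout share of the group, had 315, 501 and 494 CPM against 529, 486 and 229 CPM, and the highest library was a knockout one. 9-qA5.3-24188 had 199, 289 and 237 CPM against 247, 218 and 101 CPM. The genotypes overlapped in both of these. 6-qF3-28913 had 160, 315 and 272 CPM against 200, 201 and 66.6 CPM, also overlapping. Knockout library 6 was the lowest library of all 6 for each cluster.

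One of the 4 precursors was called lower at P28, where 31.6% of 17636 rows were. 18-qE1-36451 had a log2 fold change of -0.997 (SE 0.23, adjusted p = 0.00769, edgeR), and its knockout mean was 50.3% of wild type. The others had -0.36 for 9-qA5.3-24188 (adjusted p = 0.349), -0.08 for 4-qC5-17839 (0.851) and -0.68 for 6-qF3-28913 (0.193), with knockout means at 77.9%, 95.0% and 62.6% of wild type. No difference was detected for these 3. Scaling mattered at this age: with library totals alone the median of all rows moved from 0.05 to 0.59, the share of higher among called rows went from 43.8% to 63.1%, and the members had -0.45 (adjusted p = 0.126), 0.17, 0.44 and -0.16. At P18 the same step moved the median from -0.00 to 0.12 and the share of higher calls from 17.5% to 45.7%, and the 4 clusters stayed called lower. At P28, 42 of 96 other intergenic clusters were lower and 1 higher, with a median of -0.52, and the pachytene markers (11 of 12 lower) summed to 7530 to 13230 CPM in wild type and 2137 to 2280 CPM in knockout. The spermatid lists were also lower at P28, with 10 of 10 round (median -6.93) and 10 of 10 elongating spermatid genes (median -8.67). Leptotene and zygotene genes went the other way, with 7 of 10 higher and none lower (median 0.78), and sums of 1667 to 2441 CPM in wild type and 3169 to 4369 CPM in knockout. Of 10 spermatogonia genes 4 were higher and none lower (median 0.55). The part of these lists in the P28 values was not tested.

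Whether the knockout effect itself changed between ages was tested as an interaction. From P14 to P18 it shifted by -1.83, -1.84, -1.91 and -1.38 on the log2 scale, with adjusted p of 0.0987, 0.134, 0.1 and 0.137 (edgeR), so 0 of 4 were called where 11.2% of rows were called lower (unadjusted p was under 0.05 for 4 of 4; no DESeq2 fit of the interaction was run). Without P14 wild-type library 2 all 4 were called, at adjusted p of 0.015, 0.0316, 0.0204 and 0.00885. That fit called 2291 of 16594 rows in either direction. From P18 to P28 the effect shifted by 1.06 (adjusted p = 0.174), 1.58 (0.102), 1.83 (0.0618) and 0.61 (0.471), again 0 of 4 called where 5.52% of rows were called higher (unadjusted p was under 0.05 for 2 of 4). Without P18 knockout library 11 the first 3 were called, at 1.74, 2.38 and 2.64, as they were with library totals alone, at 1.63, 2.14 and 2.37. 4-qC5-17839 was also called without P28 knockout library 6, at 2.13 (adjusted p = 0.0386). Of 17773 rows the main fit called 3039 lower and 981 higher. With library totals alone 7048 rows were called in either direction, and 2805 to 6283 when 1 library was left out.

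Within genotype, the step from P18 to P28 gave no call in wild type, with log2 changes of -0.43, -0.44, 0.51 and -0.55 (adjusted p 0.265 to 0.422, edgeR) where 67.1% of rows were called. With library totals alone these became -1.11 (adjusted p = 0.0245), -1.10 (0.0579), -0.13 (0.813) and -1.19 (0.0313), so 18-qE1-36451 and 6-qF3-28913 were then called lower. In knockout 4-qC5-17839 rose by 2.35 (adjusted p = 0.00169), where 26.9% of rows were called higher. The other knockout changes were 0.63 for 18-qE1-36451 (adjusted p = 0.19), 1.15 for 9-qA5.3-24188 (0.0594) and 0.06 for 6-qF3-28913 (0.913). 4-qC5-17839 thus went from a knockout mean of 82.3 CPM at P18 to 415 CPM at P28, against 333 and 437 CPM in wild type.

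**Figure D3:**
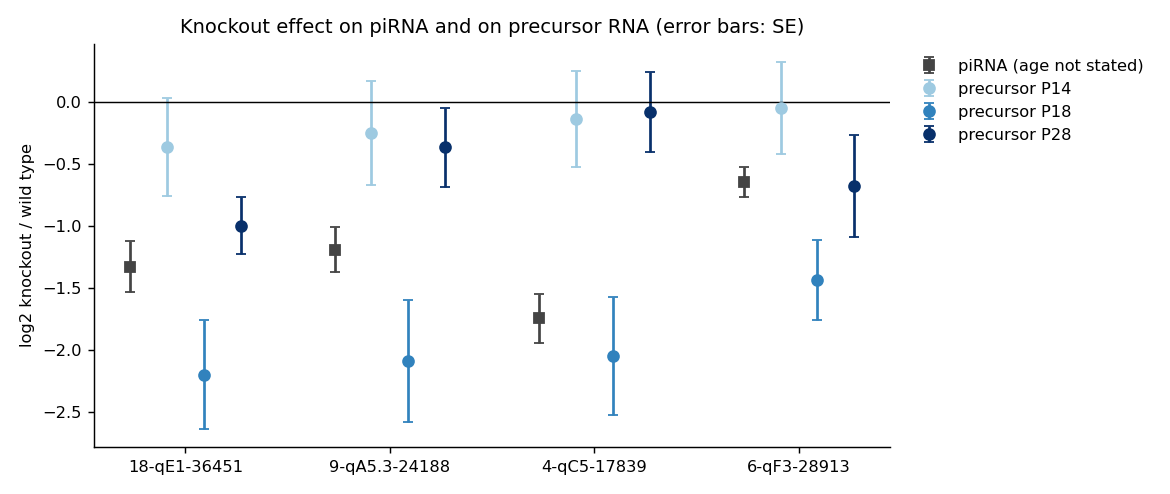
Log2 knockout over wild type (y axis) for the 4 clusters: piRNA signal (grey squares, age not stated) and precursor RNA at P14, P18 and P28 (light to dark blue circles); error bars are SE, n = 3 per genotype. The precursor difference is lowest at P18 in each cluster, and for 4-qC5-17839 it goes from -2.05 at P18 to -0.08 at P28.

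Set beside one another, the piRNA values lay between the P18 and P28 precursor values for 18-qE1-36451, 9-qA5.3-24188 and 4-qC5-17839 (39.5% of wild type against 22.3% and 50.3%, 43.5% against 24.0% and 77.9%, 29.4% against 24.7% and 95.0%). For 6-qF3-28913 the piRNA share of 63.6% was near the P28 precursor share of 62.6% and above the P18 share of 37.8%. No test was made between assays, since the age of the small RNA samples is not given. Over the 100 intergenic clusters tested at P18, the log2 differences of piRNA and precursor had a Pearson r of 0.67, and it was 0.67 over the 96 without the members. At P28 r was 0.54 (n = 100, or 0.56 over the 96 without the members) and at P14 0.34 (n = 98, or 0.34 over 94). The 114 genic clusters had an r of 0.65 at P18, 0.34 at P28 and 0.10 at P14, so a relation at P18 was not limited to intergenic clusters. The points of each assay share the same 6 libraries and their scaling, and clusters are not independent replicates.

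**Figure D4:**
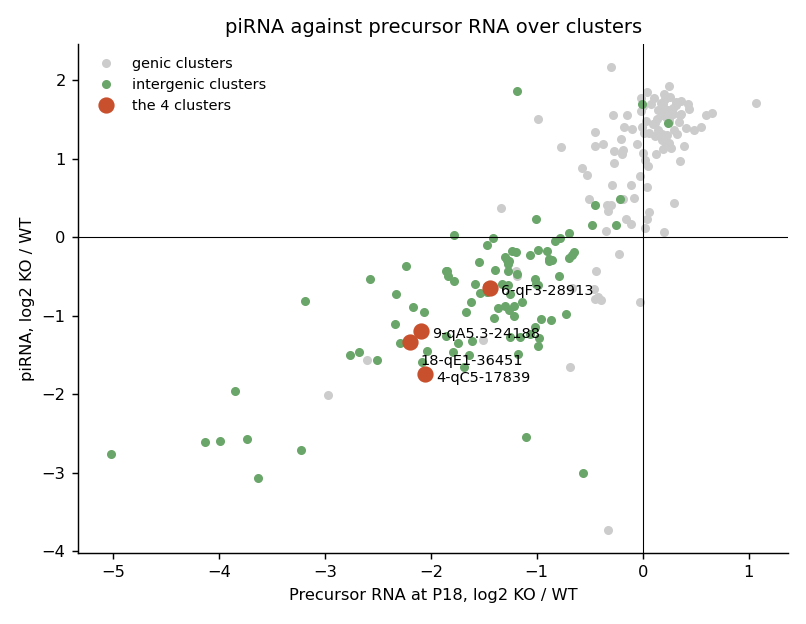
Each point is a cluster: precursor RNA at P18 (x axis, log2 KO / WT) against piRNA signal (y axis, log2 KO / WT), for intergenic (green) and genic (grey) clusters, with the 4 members in red. The members lie in the lower left among the other intergenic clusters, at -2.20 to -1.44 on the x axis.

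Clusters whose names share a band with a member were read in the same fits. On band 18-qE1, 18-qE1-1295 had a precursor log2 fold change of -2.58 at P18 (adjusted p = 0.00109, edgeR) and -0.92 at P28 (0.00328), next to -2.20 and -0.997 for 18-qE1-36451. On band 9-qA5.3, 9-qA5.3-1495 had -2.51 (0.00101) and -1.94 (0.00607), so it was called lower at P28 where 9-qA5.3-24188 was not; the difference between them was not tested. On band 6-qF3, 6-qF3-8009 had -1.86 (0.00417) and -1.48 (0.008). 6-qF3-1063 and 6-qF3-3040 were lower at P18, at -1.01 (0.0168) and -0.78 (0.0464), and had -0.22 and -0.08 at P28 (0.361 and 0.75). Their order on the chromosome was not analysed here.

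The piRNA genes were read as a list of 27: 3 transcription factors, 12 biogenesis and trimming genes, and 12 effectors and granule proteins. None was called at P14 (median log2 fold change -0.04). At P18, 13 were lower and none higher, with a median of -0.40 beside -0.00 over all rows, of which 15.0% were called lower. The lower genes were 1 transcription factor, 5 biogenesis and trimming genes, and 7 effectors and granule proteins. At P28, 8 were lower and 2 higher, with a median of -0.01 beside 0.05 over all rows, of which 31.6% were called lower and 24.6% higher, so the share lower was near that of all rows. Of the transcription factors, Mybl1 had 202 ± 13.5 CPM in wild type and 186 ± 17.7 CPM in knockout at P18 (SD, n = 3; adjusted p = 0.369, edgeR). Tcfl5, a factor that acts with A-MYB on clusters, fell by 0.68 (adjusted p = 0.00837), and Btbd18, a cofactor at pachytene clusters, had 0.43 (0.0541). At P28 Mybl1 had -0.01 (0.975), Tcfl5 fell by 1.06 (0.0105) and Btbd18 rose by 1.00 (0.00741).

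Among the processing genes at P18, Mov10l1 had -0.03 (adjusted p = 0.879), Tdrkh, which tethers precursors at mitochondria for trimming, -0.21 (0.18) and Pnldc1 -0.17 (0.417). Pld6 fell by 1.41 (0.000565) and the methyltransferase gene Henmt1 by 1.46 (0.000281). Among the effectors and granule proteins, Piwil1, which encodes a PIWI protein loaded with pachytene piRNAs, fell by 1.21 (0.00283), and Piwil2 had -0.21 (0.245). The granule genes Tdrd6, Mael, Tdrd1, Tdrd5 and Ddx4 fell by 2.94 (0.000142), 0.84 (0.001), 0.70 (0.0157), 0.58 (0.0227) and 0.39 (0.0444). At P28 Piwil1 had 0.03 (0.897) and Tdrd1 -0.27 (0.247), while Tdrd6 was lower by a log2 value of -3.20 (5.03e-05) and Henmt1 by -1.80 (7.28e-05). All adjusted p-values are from edgeR over all rows.

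Over the 18 RNA-seq libraries the members moved together, with pairwise Pearson r of log2 CPM from 0.900 (4-qC5-17839 with 6-qF3-28913) to 0.991 (18-qE1-36451 with 9-qA5.3-24188). Of the 50 rows most like the mean of the members, out of 13561 compared, 31 were intergenic clusters, led by 13-qA5-208 at r = 0.990, followed by 11-qE1-3997, 14-qA3-3095, 5-qF-14224 (0.986 each) and 11-qE1-9443 (0.985). The leading named genes were Gstt2 (0.981), Trim11 (0.979), Piwil1 (0.978), Tmem30c (0.978), Mif4gd (0.976) and Tdrd1 (0.973). The spermatocyte gene Ldhc, which encodes the testis form of lactate dehydrogenase, had 0.895, Mybl1 0.767 and the protamine gene Prm1 0.513. These libraries share age, genotype and sequencing table, so the values describe a common profile only. Within the precursor RNA of all intergenic clusters, the members made up 6.07% to 6.96% in wild type and 2.71% to 4.54% in knockout at P18. At P28 the shares overlapped, at 3.95% to 5.12% and 2.73% to 4.91%.

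In eCLIP the members carried more cross-link events, relative to the library's total, in every D1PAS1 precipitate than in every input. Events were counted in windows that do not overlap and scaled to CPM by library totals, and the precipitates were shallow, at 102426 to 145162 events against 264157 to 3673467 in the inputs. 18-qE1-36451 had 95, 37 and 110 events in the 3 precipitates (654, 266 and 1074 CPM) and 10, 275 and 259 in the inputs (37.9, 100 and 70.5 CPM). 6-qF3-28913 had 54, 29 and 60 events (372, 209 and 586 CPM) against 13, 225 and 197 (49.2, 81.8 and 53.6 CPM). Both stood well apart, with precipitate 3 highest and precipitate 2 lowest. 9-qA5.3-24188 had 48, 20 and 71 events (331, 144 and 693 CPM) against 28, 358 and 393 (106, 130 and 107 CPM). 4-qC5-17839 had 37, 20 and 54 events (255, 144 and 527 CPM) against 25, 377 and 316 (94.6, 137 and 86.0 CPM). In these clusters precipitate 2 lay close to input 2; of all features tested, 16.8% had every precipitate above every input.

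**Figure D5:**
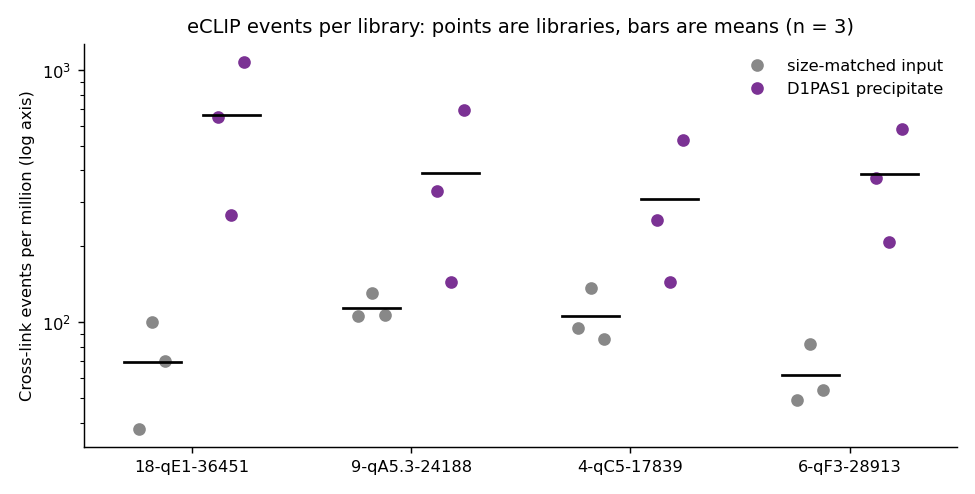
Cross-link events per 1000000 (CPM, y axis, log axis) on each cluster in 3 size-matched inputs (grey) and 3 D1PAS1 precipitates (purple); points are libraries and bars are means. All precipitate points lie above all input points, with the smallest gaps in 9-qA5.3-24188 (144 against 130 CPM) and 4-qC5-17839 (144 against 137 CPM).

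All 4 clusters were called higher in the precipitate, where 12.6% of 5018 features were. The log2 fold change was 3.32 for 18-qE1-36451 (SE 0.50, adjusted p = 0.00228, edgeR) and 2.74 for 6-qF3-28913 (SE 0.38, adjusted p = 0.0015). It was 1.87 for 9-qA5.3-24188 (SE 0.47, adjusted p = 0.0242) and 1.63 for 4-qC5-17839 (SE 0.43, adjusted p = 0.0299). These last calls were lost without precipitate 1 (adjusted p = 0.069 and 0.0771) or without precipitate 3 (log2 1.10 and 0.95, adjusted p = 0.0776 and 0.11), and when only exon windows were counted (log2 0.28 and 0.11, adjusted p = 0.613 and 0.846), where 18-qE1-36451 had 1.74 (0.00295) and 6-qF3-28913 1.23 (0.0125). The exon-window fit called 352 of 437 features in either direction, so a call was common there. 9-qA5.3-24188 also lost its call without input 2, at 1.92 (adjusted p = 0.052). Of the 97 other intergenic clusters, 38 passed the low-count filter, which a feature can pass through its precipitate counts alone. Of these, 27 were higher and 1 lower. Their median was 2.18, beside 0.01 over all features tested and 0.03 over 34 genic clusters. These values describe the features tested, not the whole class. 18-qE1-36451 held place 3 and 6-qF3-28913 place 9 of the 42 intergenic clusters tested, and the remaining members were at places 28 and 30. The cluster 6-qF3-8009 had 1.97 (adjusted p = 0.0077) and 6-qF3-1063 had 0.53 (0.269).

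The position of the events along the transcripts was described from the window numbers. The highest window numbers seen put the lengths at no less than 37.0 kb for 18-qE1-36451, 42.6 kb for 9-qA5.3-24188, 51.4 kb for 4-qC5-17839 and 45.1 kb for 6-qF3-28913; which end is counted from is not given. With that span cut into 4 equal parts, the precipitate events of 18-qE1-36451 were 9.50%, 21.1%, 37.6% and 31.8% of 242, and its input events 15.4%, 17.5%, 35.3% and 31.8% of 544. 6-qF3-28913 ran the other way, with 37.8%, 28.7%, 15.4% and 18.2% of 143 precipitate events, against 25.7%, 30.8%, 25.7% and 17.7% of 435 input events. For 9-qA5.3-24188 the precipitate shares were 18.7%, 25.9%, 24.5% and 30.9% of 139 events, and the input shares 13.1%, 16.8%, 15.3% and 54.8% of 779. For 4-qC5-17839 they were 16.2%, 19.8%, 23.4% and 40.5% of 111, against 34.1%, 18.7%, 23.1% and 24.1% of 718. A single precipitate could be more concentrated: in precipitate 3, 28 of the 110 events on 18-qE1-36451 (25.5%) lay within 1 kb. In the other precipitates the fullest kb held 5 of 37 and 8 of 95 events on 18-qE1-36451. On 9-qA5.3-24188 the fullest kb held 12 of 71 events (16.9%) in precipitate 3. It held 3 of 20 (15.0%) in precipitate 2 and 5 of 48 (10.4%) in precipitate 1. In the inputs the fullest kb of this cluster held 38.5% to 57.1%. Over the pooled precipitates, the busiest of the windows counted held 3.50% to 7.21% of a cluster's events; for 18-qE1-36451 it held 14 events, and a window overlapping it, left out of the count, held 21. Among the windows counted in the inputs, 1 held 38.6% of the 779 events on 9-qA5.3-24188 and another 25.1% of the 718 on 4-qC5-17839. When each window with any event was counted once, so that such windows weigh no more than others, the log2 fold changes were 2.24, 1.76, 1.51 and 1.83 in the order of the opening list, and all 4 were still called higher. That fit called 56 features in either direction. In it a window adds no more however deep the library, and the inputs were deeper than the precipitates. The part of depth in these values was not tested.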

How the data were processed

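The authors deposited RNA-seq as unscaled estimated counts for 24626 genes and clusters, 1 table per age. Small RNA values are a signal per cluster that the authors normalized; the first of 2 unlabelled value columns was used. For eCLIP the authors deposited the count of cross-links in each window; windows span 50 nt and step by 20 nt, as read from the deposited values, so 1 window in 3 was summed per feature to count no event more than once. The submitters' processing notes name cutadapt 3.4, HTSeq and mm10. No aligner is named there (not given in the sources used here).

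Estimated counts were rounded and tested with edgeR 4.0.16 in R 4.3.3 (TMM scaling, low-count filter by group, two-sided quasi-likelihood F-test, Benjamini-Hochberg over all rows, threshold 0.05); eCLIP sums likewise, precipitate against input. Small RNA was fitted over 215 clusters with limma 3.58.1 on log2(signal + 1). The fit gave the log2 differences with their SE and the background share, and no test was read for the members. DESeq2 1.42.0, library totals alone, no low-count filter, other windows and leaving out each library were tried. The pipeline was tested on simulated data. Library numbers in the text are those of the table columns; for knockout and P18 libraries the labels do not tie them to single samples. Same-numbered small RNA libraries deviated from their group means with r of 0.645, -0.892 and 0.404, and eCLIP libraries with 0.0444, -0.18 and 0.00459, so numbers were not taken as pairs. Differently numbered small RNA libraries ran from -0.847 (wild type 3 with knockout 1) to 0.88 (wild type 2 with knockout 1). Deviations were thus shared between libraries of both genotypes.

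The members and gene lists were chosen with earlier results of these data known. Text names the 4 clusters, clusters of the same band, fixed piRNA genes, and the rows most like the members' mean. The 6 BisMapR samples were not analysed here. For clusters no sequence is printed.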

Additional observations from a re-analysis of the deposited data

How the results depend on the processing

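Over the 4 clusters and the precursor and eCLIP comparisons 508 alternative values were computed (the piRNA contrast that chose the clusters is left out), of which 457 kept their direction and side of the threshold, 15 reversed, and 17 lost and 19 gained a call; the cause was not tested. Leaving out 1 library at a time gave, at P14, -0.63 to 0.35 for 18-qE1-36451, -0.54 to 0.49 for 9-qA5.3-24188, -0.43 to 0.57 for 4-qC5-17839 and -0.30 to 0.64 for 6-qF3-28913, with 0 to 11 rows called; the last also turned, to 0.01, without knockout library 5. At P18 it gave -2.84 to -1.70 for 9-qA5.3-24188, -2.83 to -1.71 for 4-qC5-17839 and -1.82 to -1.16 for 6-qF3-28913, with 1757 to 3319 rows called (2867 with all). At P28 it gave -0.31 to 0.22 for 4-qC5-17839, above 0 without wild-type library 2 or 3 (0.00 and 0.01) or knockout library 6 (0.22). The change of the knockout effect from P14 to P18 ran from -2.55 to -1.48, -2.63 to -1.44, -2.73 to -1.56 and -2.07 to -1.10 (1490 to 3104 rows), with 3 clusters also called without P18 knockout library 11. From P18 to P28 it ran from 0.72 to 1.74, 1.20 to 2.38 and 1.49 to 2.64 for the first 3 clusters (2805 to 6283 rows). The knockout rise from P14 to P18 was 1.23 to 2.40 for 4-qC5-17839 (1915 to 4485 rows). The knockout change from P18 to P28 was 0.28 to 1.30 for 18-qE1-36451, called without P18 library 11, 0.76 to 1.93 for 9-qA5.3-24188, called without P18 library 11 or P28 library 6, and -0.21 to 0.48 for 6-qF3-28913, below 0 without P18 library 10 (-0.21) or P28 library 4 (-0.16) or 5 (-0.17). For eCLIP it was 1.10 to 2.21 for 9-qA5.3-24188 and 0.95 to 1.92 for 4-qC5-17839 (603 to 1098 features, 1047 with all), and 12 to 191 of 215 clusters were called in small RNA (78 with all).

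At P14, DESeq2 called 58 rows and edgeR without a low-count filter 4. With library totals alone, the P28 effect was -0.45 for 18-qE1-36451 (no call), 0.17 for 9-qA5.3-24188 and 0.44 for 4-qC5-17839. The change of the effect from P18 to P28 then became 1.63, 2.14 and 2.37 for the first 3 clusters, each called (7048 rows). The wild-type change from P18 to P28 became -1.11 for 18-qE1-36451 and -1.19 for 6-qF3-28913, both called, -1.10 for 9-qA5.3-24188 and -0.13 for 4-qC5-17839, and the knockout change of 6-qF3-28913 became -0.039. The eCLIP count of called features was 2825 without the low-count filter, 1933 with all overlapping windows, 352 with exon windows only and 56 with each window counted once. Exon windows gave 0.28 for 9-qA5.3-24188 and 0.11 for 4-qC5-17839, and with library totals alone 0.65 and 0.48, with 346 features called of 437 tested. The window alternatives were chosen after seeing the data. The second small RNA value column gave 0.12, -0.16, 0.15 and -0.031 for the clusters in order, with 6 clusters called; the sources used here do not say what that column holds.

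With the replicate number as a replicate block, 23 small RNA clusters were called in place of 78 and 1077 eCLIP features in place of 1047, and the members had 3.23, 1.71, 1.58 and 2.71 in eCLIP, each still called. No paired analysis was possible because, in RNA-seq, the table columns carry numbers that do not match the replicate numbers of the labels in every group, so the planned block fits were not run. The shallow precipitates limit the eCLIP values, where the smallest member count was 20 events.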
